A study of Gallus gallus with 24 samples.

Results

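The proteasome and the ubiquitin-conjugating enzymes were compared between the abdominal fat of a high-growth (HG) and a low-growth (LG) line of chickens. Members were the genes whose symbol on the array platform starts with PSMA, PSMB, PSMC, PSMD, PSME, PSMG or UBE2, which gave 48 genes, 33 of the proteasome and 15 of the UBE2 family, among 6184 genes tested. They were listed for 94 of the 19200 spots, and 88 of those spots were measured on enough arrays to be used. All 48 genes kept at least 1 spot.

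The birds were cockerels of a pair of lines selected in opposite directions on body weight, fed, and sampled at 6 ages between 1 and 11 wk, spaced by 2 wk. HG and LG chicks were housed apart up to 3 wk, when LG received crushed pellets, and together afterwards. Each of 24 spotted cDNA arrays, 4 per age, set a single HG bird against a single LG bird of equal age, so 48 birds were measured and n counts arrays. LG was in the red dye on replicates 1 and 3 of each age and HG on replicates 2 and 4.

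Every value is the log2 of HG over LG relative to the median spot of its array, so 0 means the same shift as the median spot and a positive value means higher in HG. That red stood over green in the deposited ratios is likely, from the image software's definition of a ratio, the dyes and the wavelengths, but is not written beside the values. If green stood over red, every sign below would turn. Arrays had 17380 to 18529 measured spots, and their number limits the precision. Ratios carry no level of a gene, so the tissue could not be checked by the abundance of its marker transcripts. In ratio, 1 adipocyte marker of 7 measured passed the threshold as higher in HG (DGAT2, 0.33) and 1 as lower (PNPLA2, -0.76). Of the others 0 of 9 leukocyte, 0 of 5 endothelial and 0 of 3 erythrocyte markers passed, beside 2.04% of all genes. At an unadjusted 0.05, 2 leukocyte markers were higher in HG (CSF1R and HCLS1) and 2 lower (C1QC and CD3E), beside 12.2% of all genes. All 7 liver and all 5 smooth muscle markers were below 0 (medians -0.47 and -0.24, with array medians from -2.38 to 0.78 and from -2.16 to 0.65), with 1 passing in each list (APOA1 and MYL9). Of 7 skeletal muscle markers 6 were above 0 and CASQ2 passed as higher in HG. The part of these cells and tissues in the values below was not tested.

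The proteasome is the barrel-shaped protease that degrades proteins tagged with ubiquitin. Its 20S core is a stack of rings of alpha and beta subunits, with the cutting sites inside on beta subunits, and its 19S particle caps the core, binds tagged proteins, and unfolds them with a ring of ATPases. Ubiquitin reaches a target through an activating E1, a conjugating E2 (the UBE2 genes), and an E3 ligase that picks the target. In fat cells this pathway is known to turn over regulators of fat cell formation such as PPARG, and lipid droplet coat proteins that are not bound to a droplet.

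The first comparison asked whether the lines differed over the whole period. Of the proteasome and UBE2 genes 0 of 48 passed an adjusted p of 0.05 (limma's moderated test, Benjamini-Hochberg over 6184 genes), beside 126 of all genes, or 2.04% (0.922% higher and 1.12% lower in HG), a share at which a list of this length holds about 1 gene. At an unadjusted 0.05, 9 members passed, which is 18.8% of members beside 12.2% of all genes, and 7 of them were higher in HG (14.6% beside 7.28%). Ratios above 0 were found for 34 members, or 70.8%, beside 57.3% of all genes, with a median of 0.03 beside 0.02. In bulk tissue, fewer cells of a type and less RNA per cell cannot be told apart.

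The intervals show how large a line difference the arrays leave room for in the ratio averaged over the spots of a gene. They do not bound the difference in transcript level, because how far array ratios depart from it was not tested. The 95% interval of the ratio lay within 1.2-fold in either direction for 36 members (75%, beside 62.9% of all genes), 27 of the 33 proteasome genes and 9 of the 15 UBE2 genes. It lay within 1.1-fold for 12 members (25%, beside 23.4%) and within 1.5-fold for 46 (beside 91% of all genes). PSMB3 and PSMD7, with the widest intervals (-0.24 to 0.67 and 0.02 to 0.62), were the 2 members outside 1.5-fold. PSMB7, which carries the trypsin-like cutting site, had the smallest residual SD over arrays among members (0.115) and an interval of -0.02 to 0.10.

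**Figure D1:**
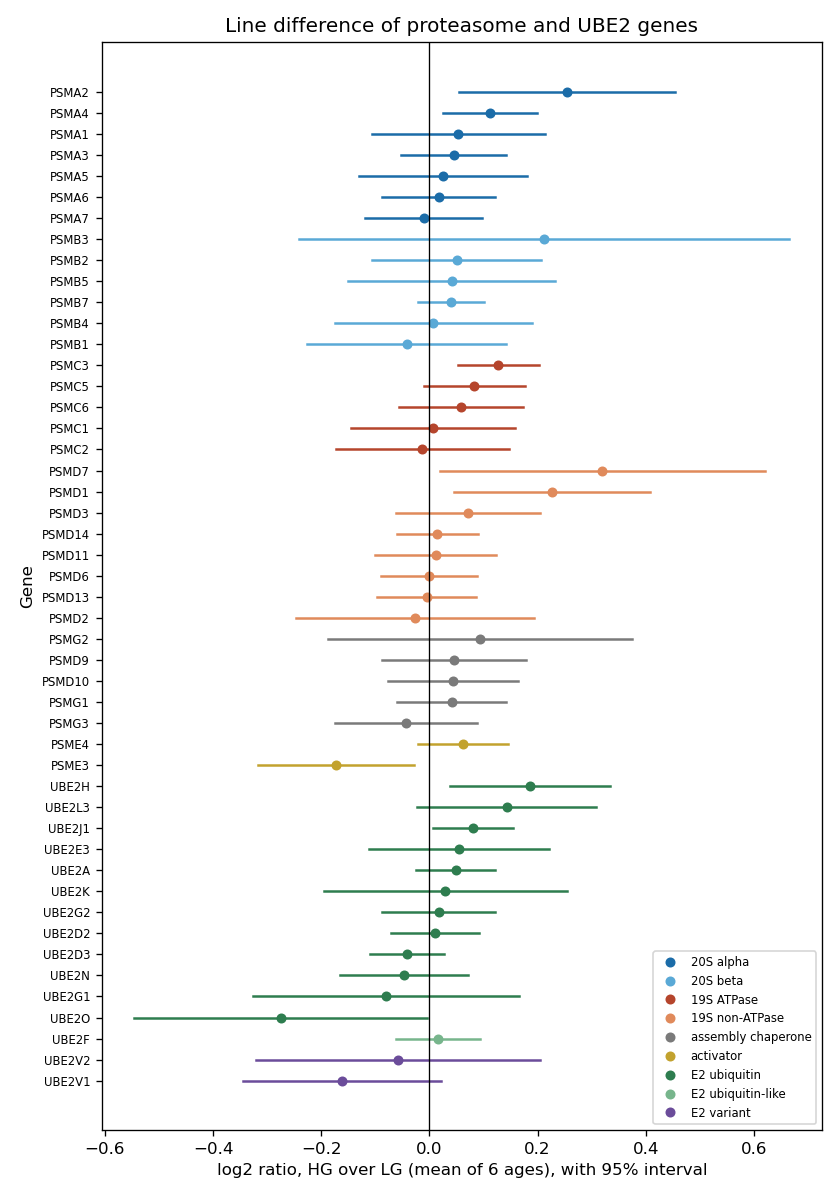
Log2 ratio of HG over LG for each of the 48 genes, as the mean of 6 ages (points) with its 95% interval (lines), grouped and coloured by role. Most intervals cross 0, 7 lie above it and 2 (PSME3 and UBE2O) lie below it, and after adjustment over all genes 0 passed.

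Of the 13 measured genes of the 20S core, 11 had a ratio above 0 over the ages, with a median of 0.04. PSMA2, an alpha ring subunit, spanned -0.81 to 1.40 over the arrays with a median of 0.22. HG was higher on 20 of the 24 arrays, 10 of 12 in each dye orientation. Its ratio was 0.25 (1.19-fold, SE 0.10), which did not pass (adjusted p = 0.244). PSMA4, another alpha subunit, was higher in HG on 16 arrays, between -0.23 and 0.53, at 0.11 (SE 0.04, adjusted p = 0.231). The remaining alpha subunits lay between -0.01 (PSMA7) and 0.05 (PSMA1), with PSMA3, PSMA5 and PSMA6 at 0.04, 0.02 and 0.02. Among beta subunits, PSMB3 had the highest ratio, 0.21 (SE 0.22), on arrays from -1.86 to 2.33. PSMB2 and PSMB5, the latter carrying the chymotrypsin-like cutting site, followed at 0.05 and 0.04, and PSMB7, PSMB4 and PSMB1 stood at 0.04, 0.01 and -0.04.

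In the 19S particle 9 of 13 genes had a ratio above 0 (median 0.01). PSMC3, an ATPase of the ring that threads proteins into the core, had the smallest p of all members. It ranged from -0.11 to 0.46 over the arrays with a median of 0.07, and HG was higher on 19 of 24, 9 of 12 with LG in red and 10 of 12 with HG in red. The ratio was 0.13 (1.09-fold, SE 0.04) and missed the threshold (adjusted p = 0.0728). Leaving out array 4 of 5 wk or array 1 of 7 wk brought it past the threshold, at 0.14 in both cases (adjusted p = 0.0363 and 0.0433). With other single arrays left out it did not pass, with an adjusted p up to 0.134. Over all settings the ratio ran from 0.04 to 0.16. The other ATPases were PSMC5 at 0.08, PSMC6 at 0.06, PSMC1 at 0.01 and PSMC2 at -0.01.

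PSMD7, a lid subunit that pairs with the deubiquitinase PSMD14, had the largest ratio of all members, 0.32 (1.25-fold, SE 0.14), on 23 arrays from -1.29 to 1.98. It was higher in HG on 16 of them and did not pass (adjusted p = 0.359). Its means were -0.04 with LG in red and 0.61 with HG in red, so the ratio came from 1 orientation. PSMD1, the large scaffold of the base, followed at 0.23 (SE 0.09, adjusted p = 0.257), with HG higher on 14 arrays. PSMD3 of the lid stood at 0.07. PSMD14, which cuts ubiquitin chains off the substrate, was at 0.01 with an interval of -0.06 to 0.09, and the lid subunits PSMD6, PSMD11 and PSMD13 were at -0.00, 0.01 and -0.01. PSMD2, a base subunit that docks ubiquitin-binding proteins, was the lowest of the non-ATPase subunits at -0.03.

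Outside the complex itself, 4 of 5 assembly chaperones lay above 0 (median 0.04). These were PSMG2 (0.09), PSMD9 (0.05), PSMD10 (0.04) and PSMG1 (0.04), while PSMG3 was at -0.04. The activators, which cap the core in place of the 19S particle, had opposite signs. PSME3, a nuclear activator, ranged from -0.88 to 0.47 with a median of -0.21. HG was lower on 14 of the 24 arrays, and higher on 8 of 12 with LG in red against 2 of 12 with HG in red. Its ratio was -0.17 (1.13-fold lower, SE 0.07, adjusted p = 0.283). PSME4 was at 0.06 (SE 0.04).

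Among the 15 UBE2 genes 9 had a ratio above 0, with a median of 0.02, which is that of all genes. UBE2H, the E2 that works with the CTLH ligase in mammals, was higher in HG on 21 of 24 arrays, the most of any member. Array values went from -0.87 to 0.80 with a median of 0.23, and both low values, -0.87 on array 1 of 5 wk and -0.53 on array 2 of 1 wk, stood far from the others. The ratio of 0.19 (1.14-fold, SE 0.07) did not pass (adjusted p = 0.249). Without array 1 of 5 wk it was 0.24 and passed (adjusted p = 0.0214), and with arrays weighted by their own spread it was 0.26 and passed (adjusted p = 0.0213). It passed in no other setting, and with another array left out the adjusted p went up to 0.369.

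UBE2L3, which serves HECT and RBR ligases, stood at 0.14 (SE 0.08). UBE2J1, an E2 of the endoplasmic reticulum that acts on misfolded proteins, was at 0.08 (SE 0.04, adjusted p = 0.334), with HG higher on 15 arrays and on the mean at each age. UBE2O, a large enzyme with both E2 and E3 activity, had the lowest ratio of all members, -0.28 (1.21-fold lower, SE 0.13, adjusted p = 0.394). HG was lower on 16 of 23 arrays, but with HG in red it was lower on all 12, and with LG in red on 4 of 11. UBE2V1 and UBE2V2, which lack the catalytic cysteine and build chains together with UBE2N, were at -0.16 (SE 0.09) and -0.06 (SE 0.13), and UBE2N was at -0.05. UBE2G1 stood at -0.08 and UBE2D3 at -0.04. The other 6 UBE2 genes lay between 0.01 (UBE2D2) and 0.05 (UBE2E3), among them UBE2F, which conjugates NEDD8 rather than ubiquitin, at 0.02.

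Spots of the same gene were mostly different cDNA clones, and their values differed. Of 28 members with more than 1 spot, 18 had spots of both signs (64.3%, beside 53.5% of the 2538 genes with several spots, leaving out STUB1, which is printed many times). Age means and 1 dye shift shared by all ages were then removed. With that, 2 spots of the same member correlated over the 24 arrays with a median r of 0.04 (55 pairs), beside 0.05 for all genes (5833 pairs). In 4 of the 55 pairs, of PSMB5, PSMD3, UBE2E3 and UBE2N, both spots carried the same clone. These had a median r of 0.17 and opposite signs in 3. For all genes, 1058 such pairs had a median r of 0.11 and opposite signs in 464. In a fit on single spots, 3 of 88 member spots passed the threshold (3.41%), beside 2.47% of the 16895 spots. These were spots of PSMD1, PSMC3 and UBE2D3.

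PSMD1 had 3 spots, named A, B and C here. Spot A read 0.41, -0.20, 0.19 and 0.37 at 1 wk and 0.53, 0.16, 0.07 and 1.19 at 3 wk. At 5 wk it read -0.02, 0.27, -0.00 and 0.03. At 7 wk the 4 arrays read 1.31, 0.71, 1.53 and 0.74, at 9 wk 0.89, 0.28, 0.97 and 1.26, and at 11 wk -0.47, 1.18, 0.27 and 0.52. The 3, 7 and 9 wk arrays were all above 0, and the 7 wk arrays were all above those of 1 and 5 wk.

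Over the ages spot A gave 0.51 (1.42-fold higher in HG, SE 0.09, 95% interval 0.32 to 0.69), with an adjusted p of 0.00313 over all spots. HG was higher on 20 of 24 arrays, and the mean was 0.47 with LG in red and 0.54 with HG in red. This was the only member spot whose call held in every setting tried, with any of the 24 arrays left out (adjusted p up to 0.00801) and under the other 11 settings (up to 0.0167). Among these, the choice of 1 spot per gene leaves a spot fit unchanged by construction. At 7 wk it was also the only member spot to pass, at 1.07 (SE 0.22, adjusted p = 0.0457), beside 0.225% of all spots. That call was lost without any 1 of 16 arrays, up to an adjusted p of 0.337.

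Of the other PSMD1 spots, C did not show this difference, and B scattered too widely to tell. Spot B averaged 0.14 (SE 0.22) on arrays from -1.45 to 2.79, with a 95% interval of -0.32 to 0.59 that holds the value of spot A. Spot C averaged 0.04 (SE 0.04) on arrays from -0.40 to 0.45, with a 95% interval of -0.05 to 0.13 that does not reach the interval of spot A. At 7 wk spots B and C read 0.41 (SE 0.53) and 0.08 (SE 0.10). The gene ratio of PSMD1 is thus a mean over spots of which A and C disagree in size.

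**Figure D2:**
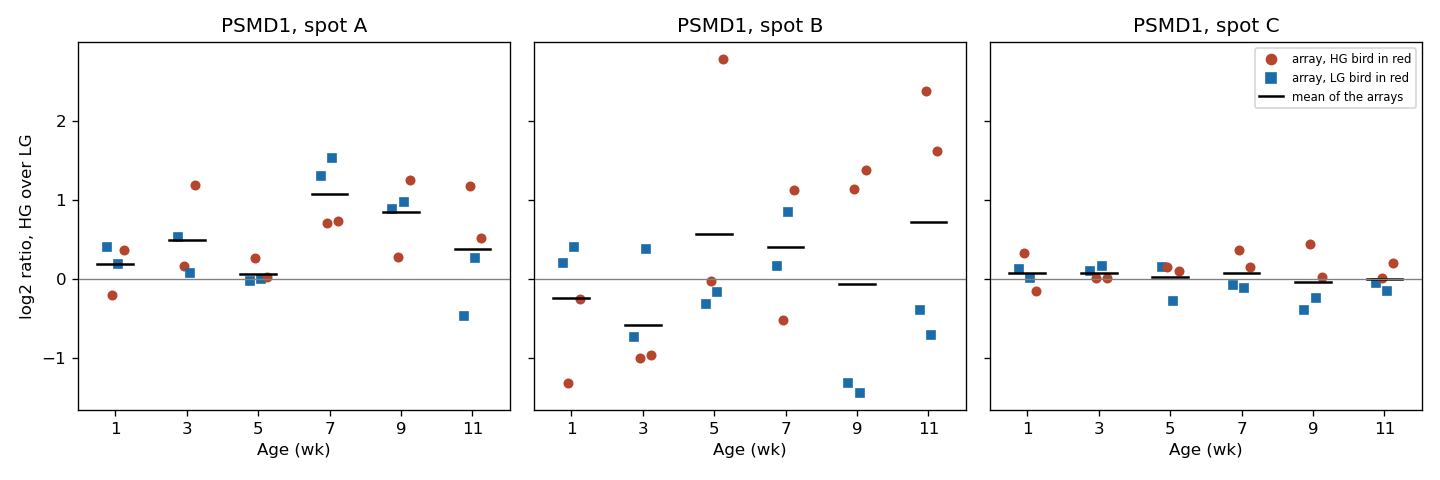
Log2 ratio of HG over LG on each array against age in wk for the 3 spots of PSMD1, with arrays that have HG in red as circles, arrays that have LG in red as squares, and the mean of the arrays as a bar. Spot A is at 0.71 or more on all 4 arrays of 7 wk, spot B scatters from -1.45 to 2.79, and spot C stays between -0.40 and 0.45.

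Of the 2 spots of PSMC3, the first averaged 0.21 (1.16-fold, SE 0.05, adjusted p = 0.0409 over all spots), with HG higher on 19 of 24 arrays and means of 0.28 with LG in red and 0.15 with HG in red. Its means by age were 0.19, 0.10, 0.40, 0.33, 0.18 and 0.08 from 1 to 11 wk. The other spot averaged 0.04 (SE 0.05), with HG higher on 14 arrays. UBE2D3, an E2 that serves many ligases, had a spot at -0.22 (1.16-fold lower in HG, SE 0.05, adjusted p = 0.0423), with HG lower on 18 arrays and means of -0.18 and -0.25 in the orientations with LG and HG in red. Its other spots averaged 0.09 (SE 0.06) and -0.00 (SE 0.06), and each split by dye: they were higher in HG on 12 and 3 of the 12 arrays with LG in red and on 2 and 12 of those with HG in red. The PSMC3 and UBE2D3 spots lost their calls without any 1 of 18 and 17 of the 24 arrays (adjusted p up to 0.0814 and 0.0837). A spot of PSMC6, an ATPase of the same ring as PSMC3, came next at 0.13 (SE 0.04, adjusted p = 0.0636), while its other spot averaged -0.02 (SE 0.10).

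The dye left a larger mark than the line on most members. Its shift of a ratio, which is the fitted difference between the orientations divided by 2, exceeded the genotype ratio in size for 35 of 48 members (72.9%, beside 74.5% of all genes). The differences furthest from 0, HG in red minus LG in red, were those of PSMA5 at 0.95, PSMA1 at -0.90, UBE2O at -0.86 and PSMG3 at 0.81. Each age holds 2 arrays of each orientation, and the fit removes 1 dye shift shared by all ages. A dye shift that changes with age stays in the spread. Means of the same sign in both orientations were found for the remaining 13 members (27.1%, beside 25.5%), among them PSMC3, PSMA2, PSMA4 and UBE2J1. These same 4 members were above 0 at all 6 ages (8.33%, beside 4.88% of all genes). UBE2O and UBE2V1 were below 0 at all 6 (4.17%, beside 3.59%), but neither had means of the same sign in both orientations.

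The second set of comparisons asked at which ages the lines differed. At no age did a member pass (0 of 48 each), beside 0 genes at 1 and 3 wk, 0.372% at 5 wk, 0.226% at 7 wk, 0.0323% at 9 wk and 0.0647% at 11 wk. At an unadjusted 0.05, members passing numbered 3, 1, 3, 5, 1 and 0 in order of age, beside 6.76, 3.28, 7.29, 7.1, 7.47 and 6.19% of all genes. Only at 7 wk (10.4% of members) was their share above that of all genes. Ratios above 0 were found for 24, 25, 34, 36, 24 and 27 of the 48. For all genes the shares above 0 were 50.8, 48.4, 59.9, 60.6, 54.7 and 53.4%, and for members 50, 52.1, 70.8, 75, 50 and 56.2%.

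Proteasome genes followed this course, with 25 of 33 above 0 at 5 wk and again at 7 wk, and 18 at 3 and 9 wk. Their median was 0.09 at 5 wk and 0.08 at 7 wk, beside 0.03 and 0.03 for all genes, and 0.01 at 9 wk. At 7 wk all 7 alpha subunits were above 0, from 0.03 (PSMA3) to 0.43 (PSMA2), with a median of 0.21. At 9 wk 2 of the 7 were. The 20S core as a whole had 11 of 13 genes above 0 at 5 and 7 wk and 4 of 13 at 9 wk. Of the 19S particle, 10 of 13 genes were above 0 at 7 wk and also at 9 wk. These differences between ages in the count of genes were not tested.

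By array, the median of the 20S core ranged from -0.22 to 0.37 and was above 0 on 17 of the 24 arrays, that of the 19S particle from -0.10 to 0.24 and above 0 on 15, and that of the UBE2 genes from -0.11 to 0.33 and above 0 on 11. The median of all genes was above 0 on 17 arrays, in a narrower range of -0.04 to 0.03. At 5 wk the 4 arrays were all above 0 for the 20S core, and at 7 wk all 4 were above 0 for the 19S particle. The UBE2 median was below 0 on all 4 arrays at 3 wk. At the other ages the arrays of each of these sets fell on both sides of 0. The median of all genes was itself above 0 on all 4 arrays at 7 wk and at 9 wk. Whether more groups lay on 1 side than random signs give was not tested.

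**Figure D3:**
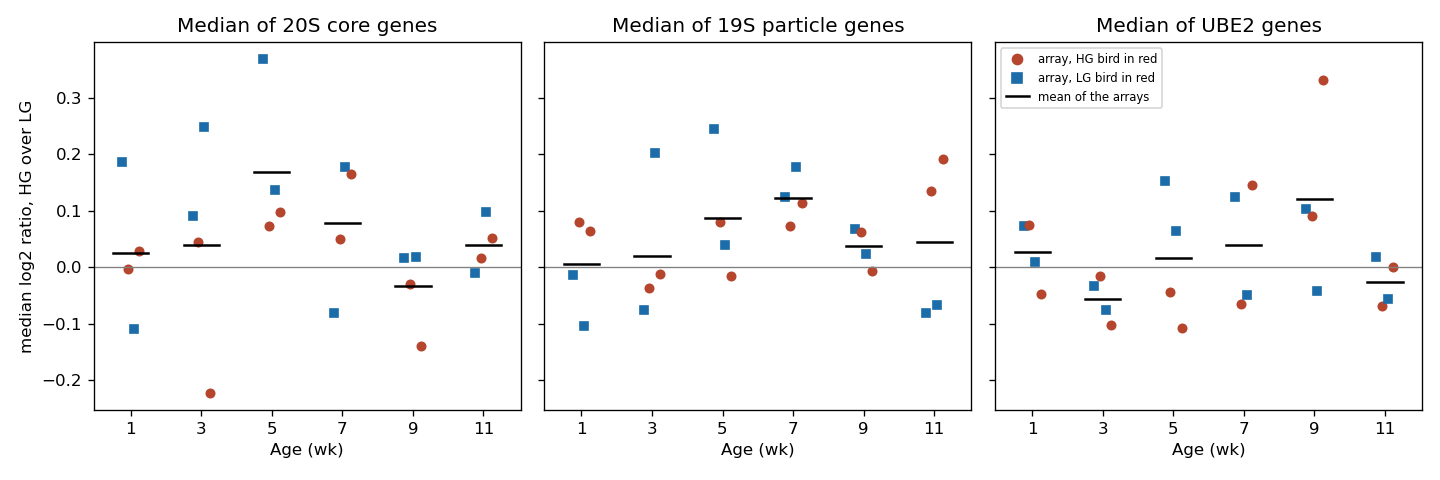
Median log2 ratio of HG over LG of the genes of the 20S core, the 19S particle and the UBE2 family on each array, against age in wk, with arrays that have HG in red as circles, those with LG in red as squares, and the mean of the 4 arrays as a bar. The 20S core lies above 0 on all 4 arrays at 5 wk and the 19S particle on all 4 at 7 wk, while the UBE2 medians lie below 0 on all 4 arrays at 3 wk and on both sides of 0 over the ages.

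At each age the 3 members with the smallest p were as follows, and none had an adjusted p that passed. At 1 wk PSMC2 read -0.86, -0.59, -0.54 and 0.16 (mean -0.46, SE 0.19), UBE2J1 averaged 0.20, and PSME4 averaged 0.21. At 3 wk PSMC1 was above 0 on all 4 arrays, at 0.75, 0.04, 0.27 and 1.39 (mean 0.61, SE 0.18), the smallest p of any member at any age. PSMG2 averaged 0.59 (its 2 spots 1.21 and -0.03) and PSME3 -0.25 at that age. At 5 wk PSMB2 read 0.76, 0.17, 0.50 and 0.88 (mean 0.58, SE 0.18), again above 0 on all 4, with PSMC3 at 0.26 and PSMC1 at -0.41.

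At 7 wk PSMD1 read 0.47, 0.18, 0.75 and 0.67 (mean 0.52, SE 0.21), all above 0. PSMA4 read 0.18, 0.41, 0.03 and 0.34 (mean 0.24), also all above 0, and PSMC3 averaged 0.19. At 9 wk UBE2H read 0.42, 0.26, 0.14 and 0.80 (mean 0.40, SE 0.17), above 0 on all 4, with UBE2K, which builds ubiquitin chains, at 0.55 and UBE2J1 at 0.13. UBE2K rested on array 4 (1.75), as the others read 0.12, -0.03 and 0.36. At 11 wk, when members showed the least, PSMB2 averaged -0.35, PSMD1 0.37 and PSMG2 0.56.

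**Figure D4:**
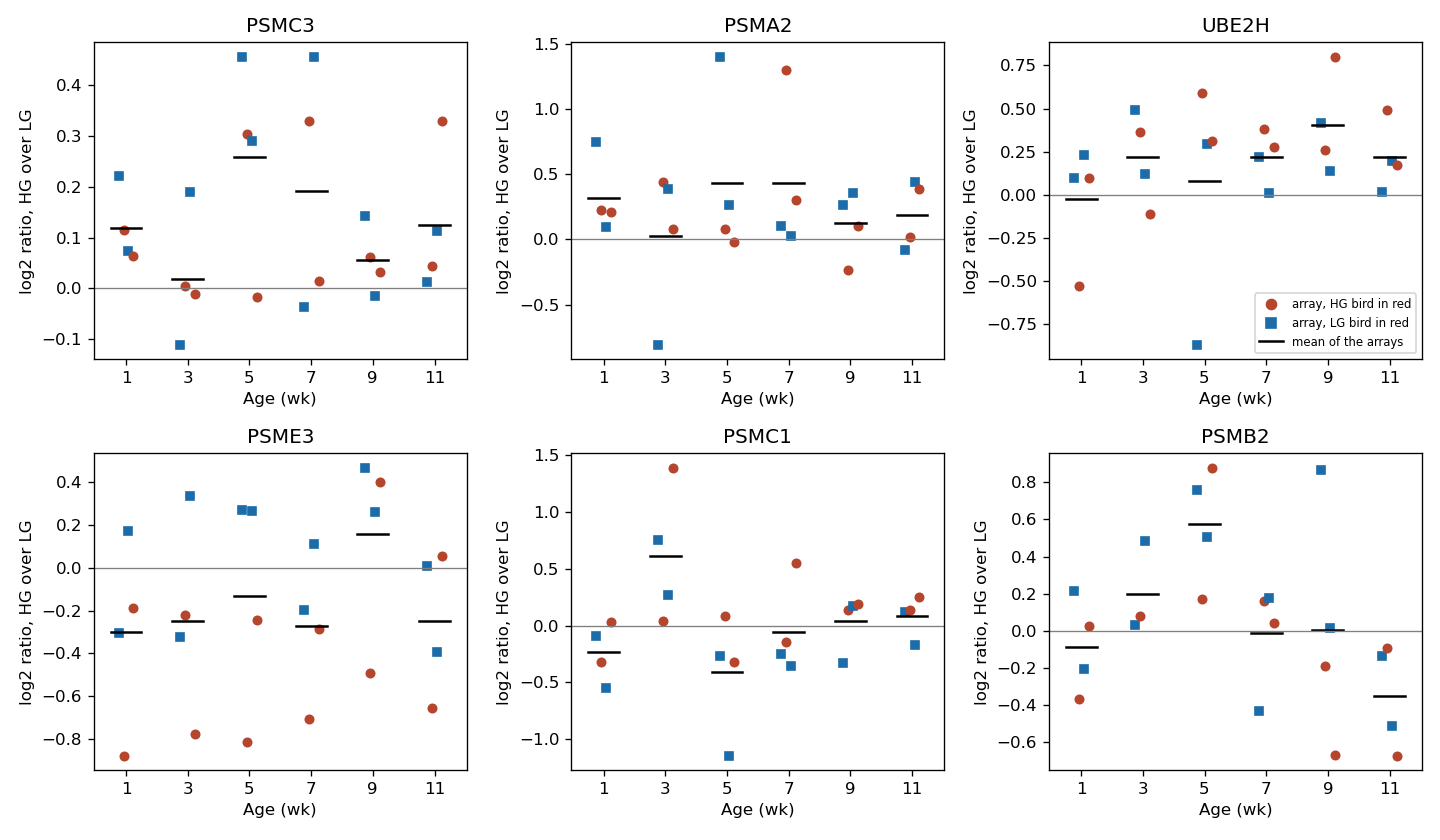
Log2 ratio of HG over LG on each array against age in wk for PSMC3, PSMA2, UBE2H, PSME3, PSMC1 and PSMB2, with circles for arrays with HG in red, squares for LG in red, and bars for the mean of the arrays; the scales differ between panels. PSMC3 and UBE2H are above 0 on 19 and 21 of the 24 arrays, and PSMB2 is above 0 on all 4 arrays at 5 wk and below 0 on all 4 at 11 wk. The PSMB2 pattern was found by a search over members and pairs of ages and was not tested.

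The third question was whether the line difference changed with age. In limma's moderated F test over the ages 0 of 48 members passed, beside 0.0323% of all genes, and 3 passed an unadjusted 0.05 (6.25%, beside 4.87%). These were PSMC1 (adjusted p = 0.811), PSMC2 (0.923) and PSMB2 (1.00). PSMC1 went from -0.23 at 1 wk to 0.61 at 3 wk and -0.41 at 5 wk, then stayed between -0.05 and 0.08. A single PSMC1 spot carried this, with 2.40, -0.02, 0.69 and 4.90 on the arrays of 3 wk (mean 1.99, SE 0.59) and a mean of -1.26 at 5 wk. The other 2 PSMC1 spots averaged -0.09 and -0.06 at 3 wk.

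PSMC2 stood at -0.46 at 1 wk, at 0.36 and 0.40 at 5 and 7 wk, and at -0.21 at 11 wk. PSMB2, a structural beta subunit, stood at 0.58 at 5 wk and at -0.35 at 11 wk, where the arrays read -0.14, -0.09, -0.51 and -0.67. Next by p came PSMG2, from -0.51 at 1 wk to 0.59 at 3 wk, UBE2K, with its high value at 9 wk, and PSMA6, highest at 7 wk (0.27). The 7 wk value of PSMA6 came from 1 of its spots, at 0.55, with the other at -0.02. A single PSMG2 spot carried its change, averaging -1.42 at 1 wk and 1.21 at 3 wk. That spot was measured on 20 arrays, from -2.96 to 2.59. The other PSMG2 spot averaged -0.02 and -0.03 at these ages. For a linear change with age, 0 members passed (0% of all genes also) and 0 passed an unadjusted 0.05, beside 4.98%. The smallest p values belonged to PSMG2 (0.13 per 2 wk step, SE 0.08), PSMD1 (0.08, SE 0.05) and PSMB2 (-0.07, SE 0.04).

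**Figure D5:**
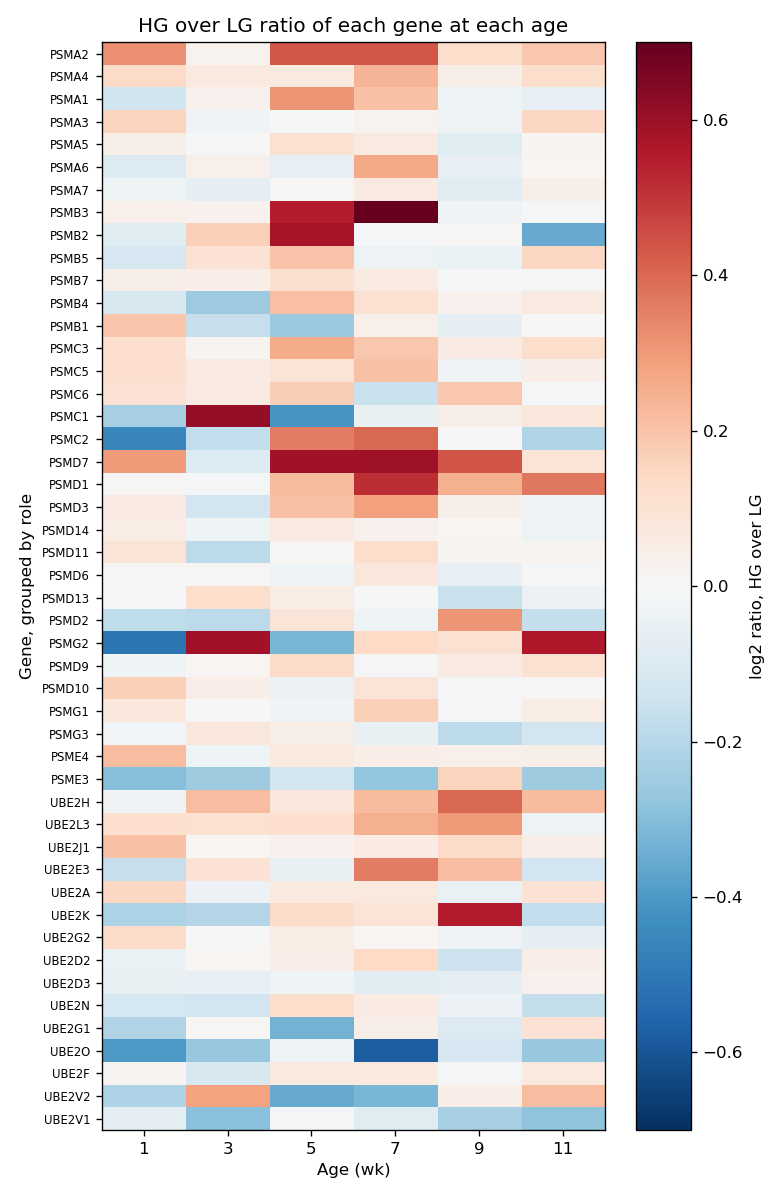
Fitted log2 ratio of HG over LG of each of the 48 genes (rows, grouped by role) at each age in wk (columns), on a colour scale from -0.7 (blue, lower in HG) to 0.7 (red, higher in HG). Red prevails at 5 and 7 wk, where 34 and 36 of the 48 genes are above 0, and the deepest colours stand in rows of wide spread such as PSMB3, PSMD7, PSMC1 and PSMG2.

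The members' deviations from array to array were described by their correlations. For the medians of these, the weak correlation between spots of the same gene (median r of 0.04) sets a narrow range. Age means and 1 dye shift shared by all ages were removed first, so a dye shift that changes with age stays in. The median correlation over the 24 arrays was then 0.004 among the 528 pairs of proteasome genes, beside -0.002 for all pairs of genes. It was 0.10 within the 20S core (78 pairs, 61.5% of them above 0, beside 49.8% of all pairs), 0.01 within the 19S particle (78 pairs), 0.02 within the UBE2 family (105 pairs) and 0.01 between proteasome and UBE2 genes (495 pairs). With arrays not centred the proteasome value was 0.22. The offset of each array, shared by all its spots, then stays in, and no value for all genes was taken without centring. The closest pairs were PSMB3 with PSMD1 (r = 0.85), PSMB7 with PSMD13 (0.82) and PSME4 with UBE2G2 (0.82). PSMB3 and PSMD1 alternated with dye orientation at 1 wk and the other way round at 9 wk. PSMB3 read 0.44, -0.50, 0.56 and -0.35, then -1.86, 1.00, -1.58 and 2.33. PSMD1 read 0.25, -0.40, 0.20 and -0.01, then -0.28, 0.62, -0.24 and 0.89. The 9 wk pattern of PSMD1 came mostly from spot B (-1.32, 1.14, -1.45 and 1.38). Spot C alternated less (-0.40, 0.45, -0.24 and 0.02), and spot A did not (0.89, 0.28, 0.97 and 1.26). Spot B lies in the same block of the array as the spot of PSMB3. The part of a changing dye shift or of a shared block in these correlations was not tested. The most opposed were PSMA6 with UBE2E3 (-0.75) and UBE2G1 with UBE2G2 (-0.75). These pairs were picked as the extremes of all member pairs. Such extremes were not taken for all genes, whose pairs had quartiles of -0.215 and 0.215. PSME4 and UBE2G2 were each higher in HG on 12 of 12 arrays with LG in red and on 1 of 12 with HG in red. The points of these correlations are arrays, which share their printing and scan between genes.

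Other genes of the pathway, taken as lists, also had 0 passing over the ages, at an age or in the F test. Beside this stand 2.04% of all genes over the ages, at most 0.372% at an age and 0.0323% in the F test. Lists this short hold few genes or none at such shares. Of all genes 57.3% were above 0 over the ages. Of 5 other genes linked to the proteasome, not all of them subunits, all were above 0 (median 0.11). They were ADRM1, POMP, USP14, PSMF1 and NFE2L1. ADRM1, a ubiquitin receptor of the 19S particle, had a ratio of 0.24 (SE 0.07, adjusted p = 0.0775), with HG higher on 17 arrays, and POMP, which helps to assemble the core, 0.11 (adjusted p = 0.563). Of 7 genes of ubiquitin and ubiquitin-like proteins 6 were above 0 (median 0.05), led by ATG12 (0.11, adjusted p = 0.166) and GABARAPL2 (0.24, adjusted p = 0.593), which act in autophagy. Of 4 E1 genes 2 were above 0, with UBA3, part of the E1 for NEDD8, at 0.15 and UBA6 at -0.77 (SE 0.37, both with adjusted p = 0.427).

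Among 30 E3 ligases and their scaffolds 19 were above 0 (median 0.05), led by SKP1, an adaptor of cullin ligases (0.16, SE 0.05, adjusted p = 0.111, HG higher on 19 arrays), and WWP1, a HECT ligase (0.22, SE 0.08, adjusted p = 0.216). Among 30 deubiquitinases and shuttle factors 16 were above 0 (median 0.00). The smallest p values there belonged to VCP, the ATPase that pulls tagged proteins out of membranes and complexes (-0.22, SE 0.08, adjusted p = 0.249), and SQSTM1, an autophagy receptor for tagged proteins (0.11, SE 0.05, adjusted p = 0.338).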

How the data were processed

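The authors labelled total RNA of abdominal fat with Alexa dyes, hybridised Del-Mar 14K chicken cDNA arrays, scanned them with GenePix and removed bad spots by hand. The deposited values are log2 ratios per spot, likely red over green. The LOWESS normalization in the study's methods was not applied to them, since array medians ran from -0.336 to 0.32. Values with no ratio (20191, 4.38%) and those at the software's ceiling of 16.61 (2190, 0.475%) were set to missing. Each array was centred on its median and turned to HG over LG, and a spot was kept if each age had 3 or more arrays with a value (16895). Gene symbols came from the platform annotation, whose spot coordinates are exchanged relative to the values: spots of the same gene correlated at a mean r of 0.0661 with them exchanged and at 0.0146 without. Spots of a gene were averaged. Of the 48 symbols, 47 were found by gene ID in RefSeq's gene table, all with the same symbol. No sequences were used.

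limma 3.58.1 in R 4.3.3 was fitted to all 24 arrays with 6 age coefficients and a dye coefficient. Tests were the mean over ages, each age, the F test over ages and a linear change, with Benjamini-Hochberg adjustment over 6184 genes (16895 spots for single spots) and a threshold of 0.05. The scripts were tested on simulated data. Where an array lacked a gene, the fit dropped that array. Replicate numbers mark the dye orientation and different birds, and same-numbered arrays did not deviate together (mean r -0.0848 to -0.0466). Nothing was pooled, and each array held separate birds.

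Members, pathway lists and markers were chosen with earlier results of these data known. Named with values were the 8 members with the smallest p over ages, the 6 for the F test, the 3 at each age and for the linear change, the 3 highest and lowest in each role class, and 2 genes of each pathway list. Single spots were named after their values were seen, as those past the threshold, with 1 below it, and the spots of PSMC1 and PSMG2. Alternatives were no centring, no dye coefficient, a replicate block, other filters, ceiling values kept, scaled arrays, array weights, 1 spot per gene, single spots, robust variances, and leaving out arrays or ages.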

Additional observations from a re-analysis of the deposited data

Results flagged for a closer look

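Dixon's criterion was applied to 48 groups of 4 arrays. These were the members with the smallest p at each age, the spots that passed, and the proteasome and UBE2 medians. In 3 groups an array lay far from the rest, where chance gives about 1 in 20 for values of 1 distribution. The dye shift was left in, and each group holds 2 arrays of each orientation, so that rate need not hold here. PSME4 at 1 wk read -0.024 on array 4, against 0.271 to 0.323 on the others. Over the ages PSME4 averaged 0.33 with LG in red and -0.21 with HG in red, as on arrays 2 and 4. For its orientation array 4 was thus not low. With HG in red PSME4 was higher in HG on 1 of 12 arrays, which was array 2 of 1 wk (0.323). PSMG2 at 3 wk read -0.783 on array 2, against 0.916 to 1.143. The PSMC3 spot that passed over the ages read -0.168 on array 1 of 11 wk, against 0.162 to 0.169.

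PSMB2 was above 0 on all 4 arrays of 5 wk (mean 0.578) and below 0 on all 4 of 11 wk (mean -0.3525), a difference of -0.9305. That difference itself was not tested, and the F test over all ages gave an adjusted p of 1.00. Every member with 4 arrays at both ages was searched over all pairs of ages, and PSMB2 was the only hit. How many hits all genes or random signs would give was not counted.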

How the results depend on the processing

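Members passing over the ages numbered 0. They became 1 with array weights (UBE2H), 1 with 1 spot per gene (PSMD1) and 3 in the fit on single spots. With each array left out they numbered 0 to 1. The spot kept for PSMD1 with 1 spot per gene was spot A, so that pass repeats the call of spot A. At single ages 0 became 1 with 1 spot per gene and 1 with single spots, and stayed at 0 with each array left out, as did the F test and the linear change. In the 35 settings that kept a value per gene 3 of 48 members (PSMC3, PSMD1 and UBE2H) passed over the ages in at least 1, while 22 changed sign in at least 1 and 26 in none. Member spots passing over the ages (3) fell to 1 without the dye coefficient, with the replicate block and without 1 and 3 wk, and to 1 to 3 with an array left out. Those at an age (1) fell to 0 without centring, without the dye coefficient, with the replicate block, with no filter, with scaled arrays and with the arrays of that age alone, rose to 2 with array weights, and were 0 to 1 with an array left out. The replicate block changed no gene call of a member, and gave a median correlation of 0.0201 among proteasome genes (0.223 without centring, -0.00608 to 0.0448 with an array left out). Members with spots of both signs numbered 15 to 20. All genes passing over the ages (126) were 54 without the dye coefficient (27 of them higher in HG), 202 with single spots, and 95 to 158 with an array left out, and those higher (57) were 109 with array weights and 39 to 89. Passes at single ages (43) were 79 scaled, 141 weighted, 0 with the arrays of that age alone and 26 to 70. The F test (2) gave 1 scaled, 0 without centring, without the dye coefficient, weighted, with 1 spot per gene, with single spots and without 1 and 3 wk, and 0 to 4. The linear change (0) gave 0 to 1. The cause of these differences was not tested, beyond fewer arrays or other spots entering by construction. Signal over background, which would bound dim spots, is not part of the values used here.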
